A study of Gallus gallus with 4 samples.

Results

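The genes described here encode 10 parts of the Notch signalling pathway: the receptors NOTCH1 and NOTCH2, the ligands DLL1, DLL4, JAG1 and JAG2, the Fringe enzymes LFNG and MFNG, and HEY1 and HEY2, which are not ligands, receptors or Fringe enzymes but transcriptional repressors switched on by the pathway. They were taken as every probe set to which the platform annotation gave one of these symbols and no other, which was 25 of 38382 tested probe sets, for 10 of 13008 genes with a symbol. The samples were whole ovaries of 8 hens and whole testes of 8 cocks aged 17 weeks, of the inbred CB congenic line that derives from White Leghorn chickens. No treatment or genetic alteration is named in the labels. RNA of 4 animals was pooled for each Affymetrix Chicken Genome Array, so that each organ has 2 arrays and no value belongs to a single bird. None of the 10 genes (0) lies on the Z or W chromosome in assembly GRCg7b.

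Notch receptors sit in the cell membrane and are activated by Delta and Jagged ligands on a neighbouring cell. Binding leads to cleavage of the receptor, and its inner part then enters the nucleus, where it joins the DNA-binding protein RBPJ and turns on HES and HEY genes. Fringe enzymes add a sugar to the outer part of the receptor in the Golgi and so alter which ligands it answers to. In mammals the pathway acts between germ cells and granulosa cells when follicles form, and in the growth of blood vessels.

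Values are log2 expression values per probe set as the authors deposited them, and differences are log2 ovary minus testis. A difference was called where limma's adjusted p was under 0.05 over all tested probe sets. A background level of log2 3.32 was taken from 689 probe sets for sequences of other organisms. Between 55.1% and 55.7% of the tested probe sets lay above it on each array. Pools of one organ correlated at 0.991 for ovary and 0.995 for testis across probe sets, and pools of different organs at 0.825 to 0.834. Of the marker genes measured for oocytes 7 of 7 were higher in ovary. Of those measured for spermatids 8 of 9 were higher in testis and 0 in ovary.

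Notch genes that differed between the organs were all brighter in ovary. The Fringe genes MFNG and LFNG showed the largest differences, and the receptor gene NOTCH2, the ligand genes DLL4 and JAG2 and the target gene HEY1 were also higher in ovary. Of the 25 probe sets 9 were called higher in ovary and 0 in testis (limma, 0 also at an unadjusted p under 0.05), and 16 were not called. The share called, 36.0%, lies near the 35.6% of all probe sets called in either direction, whereas 18.2% of all were called higher in ovary and 17.4% in testis. By the brightest probe set of each gene, 6 of 10 genes were called higher in ovary and 0 in testis, where 53.0% of all genes were called, 28.7% higher in ovary and 24.3% in testis. The median difference was 0.40 over the 25 probe sets and 0.0093 over all tested ones. In whole-organ RNA, fewer cells that make a transcript and less transcript per cell cannot be told apart.

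**Figure D1:**
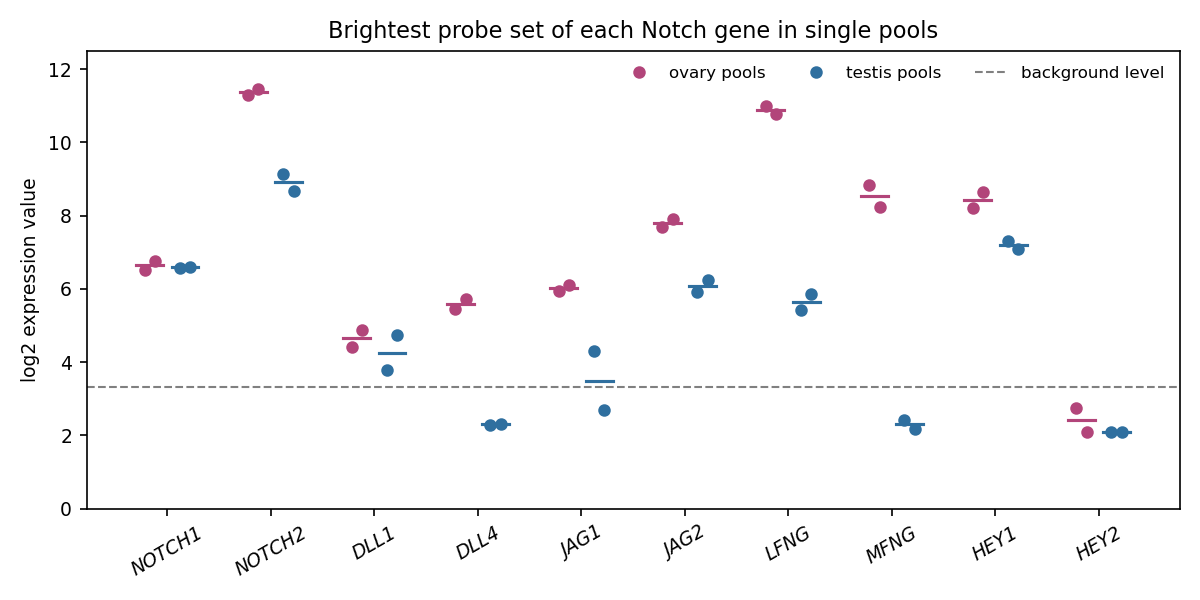
Log2 expression value (vertical axis) of the brightest probe set of each of the 10 genes, with 1 point for each of the 2 ovary and 2 testis pools, a bar at the mean of each organ and a dashed line at the background level of 3.32. Both ovary pools of NOTCH2, DLL4, JAG1, JAG2, LFNG, MFNG and HEY1 lie above both testis pools, while NOTCH1 and DLL1 overlap and all 4 pools of HEY2 lie below the line.

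Not all of the probe sets gave a signal. In 10 of the 25, all 4 arrays were at or below background, in 2 more only 1 pool was above it, and 13 were above it in both pools of an organ. All 4 arrays were above background for 8 probe sets, and 4 were above it in both ovary pools and in neither testis pool. The pools of the organs did not overlap for 17 of the 25 probe sets, against 70.0% of all probe sets.

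Of the receptors, NOTCH2 was higher in ovary and NOTCH1 was not called. NOTCH2 by its brightest probe set stood at log2 11.29 and 11.47 in the ovary pools and at 9.14 and 8.68 in the testis pools. It was bright in all 4 pools, and both ovary pools lay above both testis pools. The difference was 2.47 (SE 0.21, limma adjusted p = 0.00955), or 5.54-fold. It was called with any single pool left out, with adjusted p of 0.0405 to 0.0495.

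The other 5 probe sets of NOTCH2 did not give the same picture. The second-brightest stood at log2 7.87 and 4.20 in the ovary pools and at 5.77 and 4.55 in the testis pools. Its ovary pools lay on either side of both testis pools, and the difference of 0.87 was not called (95% interval -4.67 to 6.41, limma adjusted p = 0.789). Only 0.0886% of all probe sets had a larger gap between the ovary pools. A dim one was called at 0.63 (adjusted p = 0.0476), but all of its values, 3.10 and 2.92 in ovary and 2.48 and 2.28 in testis, were below background, so that no fold is given. With any single pool left out its adjusted p was 0.0853 to 0.181. The remaining 3 lay between log2 2.05 and 3.01 on all arrays and were not called.

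NOTCH1 had 5 probe sets, of which 1 gave a signal above background. This probe set stood at log2 6.52 and 6.77 in the ovary pools and at 6.58 and 6.59 in the testis pools. The testis values lay between the ovary values. The difference was 0.06, with a 95% interval of -0.31 to 0.43 (limma adjusted p = 0.78), so that this probe set leaves room for a fold of 0.808 to 1.35. The other 4 lay between log2 1.82 and 2.57 on all arrays, below background, and were not called.

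Among the ligands, JAG2 and DLL4 were higher in ovary, JAG1 gave mixed results and DLL1 was not called. DLL4, a ligand best known from the tip cells of growing vessels, has 1 probe set here. It stood at log2 5.43 and 5.73 in the ovary pools and at 2.29 and 2.30 in the testis pools. Both testis pools were below background and both ovary pools above it, so that DLL4 was at least 4.79-fold higher in ovary (difference 3.29, SE 0.13, limma adjusted p = 0.00268). Its adjusted p was 0.0532 without testis pool 1 and 0.0541 without testis pool 2, and 0.00751 and 0.00754 with either ovary pool left out.

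JAG2 was higher in ovary by both of its probe sets that gave a signal. The brighter of them stood at log2 7.69 and 7.92 in the ovary pools and at 5.90 and 6.23 in the testis pools. All 4 pools were above background and the organs did not overlap, with a difference of 1.74 (SE 0.17, limma adjusted p = 0.0126), or 3.34-fold. The dimmer of them stood at log2 5.37 and 6.04 in ovary and at 2.37 and 2.38 in testis. The testis pools were below background, which gives at least 5.22-fold higher in ovary (difference 3.33, SE 0.28, limma adjusted p = 0.00955). Without testis pool 1 the adjusted p was 0.0803 and 0.111 for these probe sets, and without testis pool 2 it was 0.0682 and 0.109. The third probe set of JAG2 lay between log2 2.46 and 2.48 on all arrays and was not called.

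JAG1, a ligand that mammalian oocytes present to granulosa cells, had 3 probe sets. The brightest stood at log2 5.95 and 6.10 in the ovary pools and at 4.29 and 2.69 in the testis pools. The ovary pools were alike and above both testis pools, which lay far apart, with testis pool 2 below background. Only 0.315% of all probe sets had a larger gap between the testis pools. The difference of 2.53 (SE 0.69) was not called (limma adjusted p = 0.0992). It was called after dim probe sets were left out (2.53, adjusted p = 0.0254) and after centring each array on its median (2.60, adjusted p = 0.031). Without testis pool 1 the difference was 3.34 and was called, and without testis pool 2 it was 1.73 and was not called.

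The other probe sets of JAG1 were dim. The second-brightest stood at log2 3.84 and 3.85 in the ovary pools and at 3.42 and 3.45 in the testis pools. Its pools were tight within each organ and did not overlap, and it was called at 0.41 (SE 0.02, limma adjusted p = 0.00429). All 4 values lay just above background and below the brightest probe set for other sequences on the same array, which was 3.82 to 3.97. The dimmest stood at log2 2.58 and 3.24 in ovary and at 3.66 and 3.28 in testis, with only testis pool 1 above background. It was the only member probe set above background anywhere whose difference was below 0 (-0.56, limma adjusted p = 0.367).

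DLL1, a Delta ligand, was dim in both organs. Its brighter probe set stood at log2 4.42 and 4.87 in the ovary pools and at 3.77 and 4.73 in the testis pools. The organs overlapped, and the difference of 0.40 was not called (95% interval -1.12 to 1.91, limma adjusted p = 0.634). The dimmer probe set stood at log2 2.80 and 3.83 in ovary and at 3.12 and 3.15 in testis, with only ovary pool 2 above background. Its difference of 0.18 was not called (limma adjusted p = 0.845). It became 0.70, and was called, when ovary pool 1 was left out. It became -0.34, not called, when ovary pool 2 was left out, so that the ovary pool kept decided its direction.

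**Figure D2:**
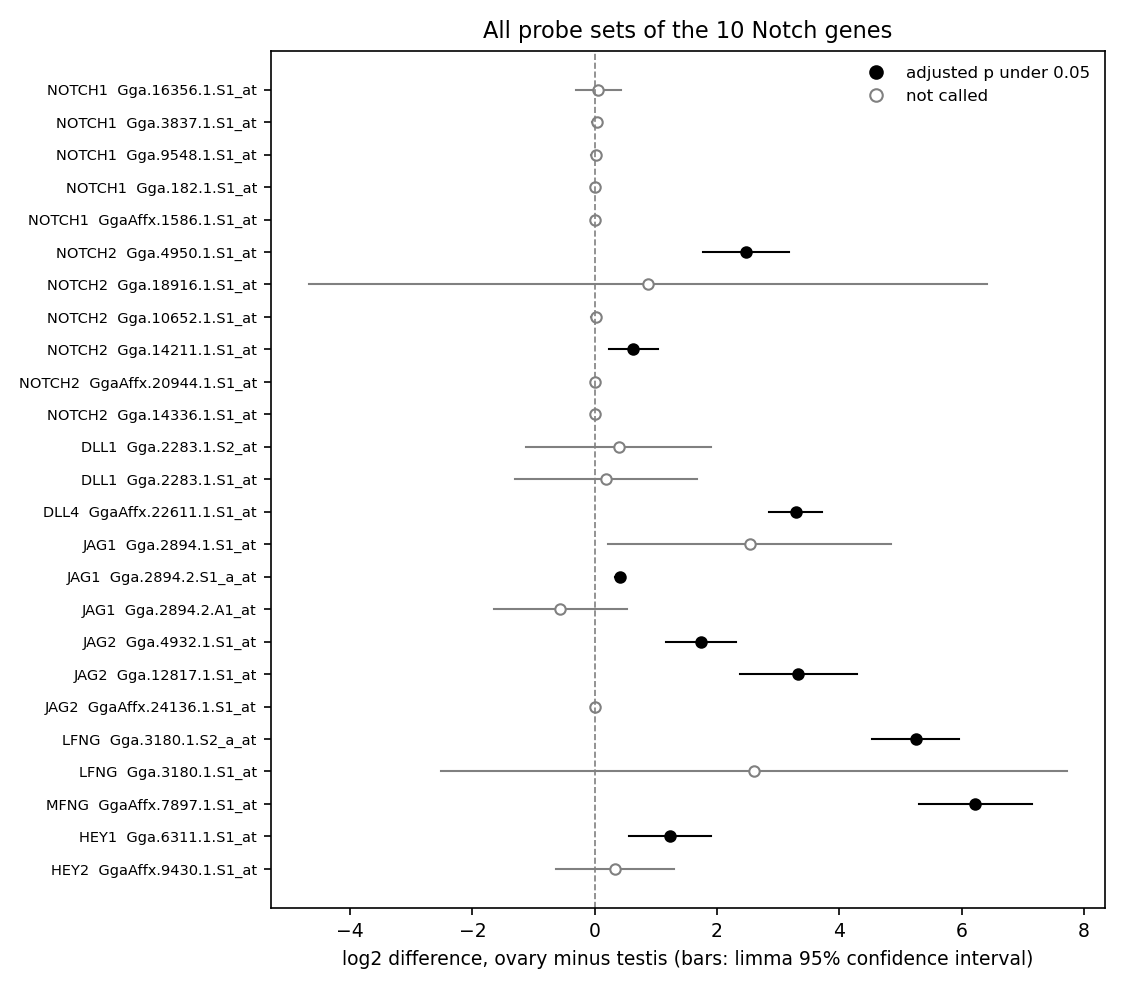
Log2 difference, ovary minus testis (horizontal axis), of all 25 probe sets of the 10 genes, with the 95% confidence interval from limma as a bar, filled points where adjusted p was under 0.05 and open points where it was not. The 9 filled points all lie right of 0, from 0.41 for a dim JAG1 probe set to 6.23 for MFNG, and the widest intervals belong to the NOTCH2 and LFNG probe sets whose ovary pools lay far apart.

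Both Fringe genes were higher in ovary, with the largest differences of the 10 genes. MFNG, which encodes manic fringe, has 1 probe set. It stood at log2 8.83 and 8.23 in the ovary pools and at 2.42 and 2.18 in the testis pools. The ovary pools were well above background and the testis pools below it, which gives at least 36.9-fold higher in ovary (difference 6.23, SE 0.27, limma adjusted p = 0.00316). The adjusted p was 0.0543 without testis pool 1 and 0.0573 without testis pool 2, with differences of 6.35 and 6.11.

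LFNG, which encodes lunatic fringe, was bright in ovary and dim but above background in testis. Its brightest probe set stood at log2 11.00 and 10.77 in the ovary pools and at 5.41 and 5.85 in the testis pools. The gap between the organs was many times that between the pools of either organ. The difference was 5.25 (SE 0.21, limma adjusted p = 0.00278), or 38.1-fold. It was called with any single pool left out, with adjusted p of 0.0165 to 0.031.

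The other LFNG probe set stood at log2 7.41 and 3.85 in the ovary pools and at 3.07 and 2.98 in the testis pools. Both ovary pools lay above both testis pools, but ovary pool 1 stood far above ovary pool 2, a gap that only 0.0964% of all probe sets exceeded. The difference of 2.61 was not called (95% interval -2.51 to 7.72, limma adjusted p = 0.367). Leaving out ovary pool 1 gave a difference of 0.83, and leaving out ovary pool 2 gave one of 4.39. Both were called in these fits, where the spread comes from the testis pools alone.

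Of the target genes, HEY1 was higher in ovary and HEY2 gave no signal. HEY1 stood at log2 8.22 and 8.64 in the ovary pools and at 7.30 and 7.09 in the testis pools. It was well above background in all 4 pools, the organs did not overlap, and the difference was 1.23 (SE 0.20, limma adjusted p = 0.0347), or 2.35-fold. The call ended without ovary pool 2 (adjusted p = 0.0539), testis pool 1 (0.178) or testis pool 2 (0.19), and after values below background were set to it (0.0652). HEY2 stood at 2.75 and 2.09 in ovary and at 2.09 and 2.09 in testis. All 4 of its values were below background, so that its probe set gives no level in either organ (difference 0.33, limma adjusted p = 0.518). Without ovary pool 2 the difference was 0.67 and was called, though every value was below background. Without ovary pool 1 it was -0.00055.

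Of the 9 called probe sets 3 were called in each of the 4 fits that left out a pool, namely the brightest of NOTCH2, the brightest of LFNG and the dim one of JAG1. The calls without testis pool 1 included the brightest probe set of JAG1 (difference 3.34), which is not among the 9. Fewer Notch probe sets were called without testis pool 1 or without testis pool 2. Over all probe sets the ovary-higher calls fell to 3898 and 3734 in the same fits.

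**Figure D3:**
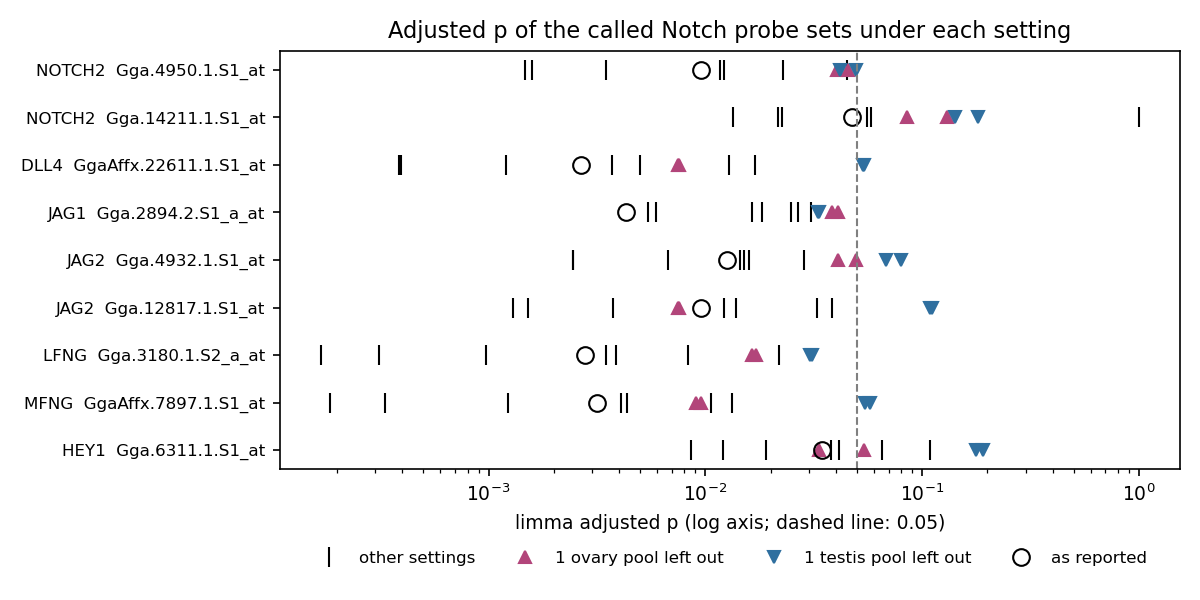
Limma adjusted p on a log axis for the 9 called probe sets (rows), with an open circle for the value as reported, triangles for fits without 1 ovary or 1 testis pool, ticks for the other settings and a dashed line at 0.05. Points right of the line come mostly from fits without a testis pool. None lie there for the brightest probe sets of NOTCH2 and LFNG or for the dim one of JAG1.

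Of 84 other genes listed for the pathway, 63 had a probe set with their symbol, and 21 of these were higher in ovary, 10 in testis and 32 not called, each by its brightest probe set. That compares with 28.7% and 24.3% of all genes. Their median difference was 0.26, against 0.015 over all genes. Of the called ones, B4GALT1, TLE1 and TLE4 lie on the Z chromosome. The calls of 8 genes, DNER, EGFL7, RFNG, EOGT, FBXW7, DTX2, AAK1 and TSPAN14, were made with every single pool left out.

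Enzymes that glycosylate Notch were called in one direction, with 5 of 8 higher in ovary and 0 in testis. RFNG, the gene of the radical fringe enzyme, stood at log2 11.73 and 11.85 in the ovary pools and at 8.99 and 9.04 in the testis pools. All 4 were bright, and RFNG was higher in ovary like the other Fringe genes (difference 2.78, SE 0.06, limma adjusted p = 0.00121, 2 of 3 probe sets called). EOGT, which adds N-acetylglucosamine to the receptor, was higher by 3.43 (adjusted p = 0.000731), with 2 of 4 probe sets called. POFUT1, which adds the fucose that Fringe extends, was higher by 0.85 (adjusted p = 0.0289), B4GALT1 by 0.87 (adjusted p = 0.0434, 1 of 2 probe sets called) and XXYLT1 by 0.42 (adjusted p = 0.015, 1 of 2). The last 3 were not called with any single pool left out (adjusted p from 0.055 to 0.153).

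Of 9 other ligand genes, ovary was higher for 3 and testis for 1. EGFL7, a vessel protein that binds Notch, was higher in ovary by 3.73 (limma adjusted p = 0.0033), with 2 of 5 probe sets called. CCN3 was higher by 3.65 (adjusted p = 0.0148) and the microfibril gene MFAP5 by 1.73 (adjusted p = 0.0134), each with 1 of 2 probe sets called. DNER, a non-canonical ligand known from neurons, stood at log2 6.19 and 6.01 in ovary and at 9.02 and 9.09 in testis. DNER was thus lower in ovary by all 3 of its probe sets (brightest -2.96, SE 0.08, adjusted p = 0.00173). Without an ovary pool the adjusted p was 0.065 and 0.0614 for CCN3 and 0.0603 and 0.0615 for MFAP5.

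Genes that handle the ligand and cut the receptor went both ways. NEURL1B, a ubiquitin ligase that drives ligand endocytosis, stood at log2 9.59 and 8.62 in ovary and at 2.49 and 2.48 in testis. Testis was below background, so that NEURL1B was at least 55.0-fold higher in ovary (limma adjusted p = 0.00556). The other of its 2 probe sets was not called. Also of the 5 endocytosis genes, MIB1 was higher in testis (-0.69, adjusted p = 0.017, 1 of 4 probe sets called). EPN2 was likewise higher in testis by its brightest probe set (-3.35, adjusted p = 0.00282), while 3 other EPN2 probe sets were called higher in ovary. Of 6 cleavage genes, NCSTN, a subunit of gamma-secretase (0.93, adjusted p = 0.00405, 1 of 2 probe sets called), and the sheddase gene ADAM17 (1.02, adjusted p = 0.0265) were higher in ovary. The presenilin gene PSEN2 was higher in testis (-0.88, adjusted p = 0.014, 1 of 2 probe sets called). Without testis pool 1 the adjusted p of these 6 genes was 0.0548 to 0.134, and without testis pool 2 it was 0.056 to 0.149. Leaving out ovary pool 1 gave 0.0508 for MIB1 and 0.0501 for ADAM17, and leaving out ovary pool 2 gave 0.0721 for ADAM17.

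RBPJ, the DNA-binding partner of the receptor, gave different answers by probe set. The brightest stood at log2 8.95 and 9.14 in ovary and at 8.88 and 8.78 in testis, and its difference of 0.21 was not called (limma adjusted p = 0.244). Of the other RBPJ probe sets 3 were called higher in testis. The brightest of those stood at 6.52 and 6.28 in ovary and at 9.61 and 9.81 in testis, a difference of -3.31 (adjusted p = 0.0029), and the others had -2.67 and -2.53. The coactivator gene MAML1 was at least 13.0-fold higher in testis, with ovary below background (adjusted p = 0.00308), and the acetyltransferase genes EP300 (1.51, adjusted p = 0.0471) and KAT2A (1.21, adjusted p = 0.0165) were higher in ovary. MAML1, EP300 and KAT2A had 3 probe sets each, of which 1 was called. Of 10 genes of this group, 2 were higher in ovary, 1 in testis and 7 not called. MAML1 and KAT2A were not called without a testis pool (adjusted p 0.0546 to 0.129), nor EP300 without any single pool (0.088 to 0.19), nor the RBPJ probe set with -2.53 without an ovary pool (0.0732 and 0.0762).

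Corepressor genes split evenly, with 3 of 12 higher in ovary and 3 in testis. TLE1 was higher in ovary by 2.83 (limma adjusted p = 0.0395), NCOR1 by 1.01 (adjusted p = 0.00418) and CTBP1 by 0.71 (adjusted p = 0.0289, 1 of 2 probe sets called). TLE4 (-1.09, adjusted p = 0.0226), BEND6 (-0.63, adjusted p = 0.0269) and KDM5A (-0.40, adjusted p = 0.0332, 1 of 3 probe sets called) were higher in testis. For NCOR1 1 of 6 probe sets was called higher in testis and 2 in ovary. Each of these 6 calls ended without at least 1 pool, at adjusted p of up to 0.136 for TLE1, 0.0511 for NCOR1, 0.109 for CTBP1, 0.178 for TLE4, 0.157 for BEND6 and 0.182 for KDM5A.

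Among 10 genes of receptor turnover and inhibition, 4 were higher in ovary and 2 in testis. DTX2, a Deltex ubiquitin ligase, was higher in ovary by 2.94 (limma adjusted p = 0.000865). NUMB, which antagonises Notch, was higher by 1.44 (adjusted p = 0.00273, 2 of 7 probe sets called), AAK1 by 1.07 (adjusted p = 0.00429, 1 of 2) and TSPAN14 by 0.53 (adjusted p = 0.00337, 1 of 2). FBXW7, which marks the cleaved receptor for destruction, was higher in testis (-1.97, adjusted p = 0.00179), as was DTX3L (-0.70, adjusted p = 0.00944). Without a testis pool the adjusted p was 0.0506 and 0.0524 for NUMB and 0.0998 and 0.103 for DTX3L.

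Among the 4 measured genes listed as other targets, HES4 stood at log2 10.87 and 11.23 in ovary and at 7.43 and 7.46 in testis. Both of its probe sets were called higher in ovary (brightest 3.61, SE 0.16, limma adjusted p = 0.00315), and without a testis pool the brightest had an adjusted p of 0.0588 and 0.0594. HES5, HES6 and NRARP were below background on every array. No probe set listed here carried the symbols HES1 or HEYL.

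**Figure D4:**
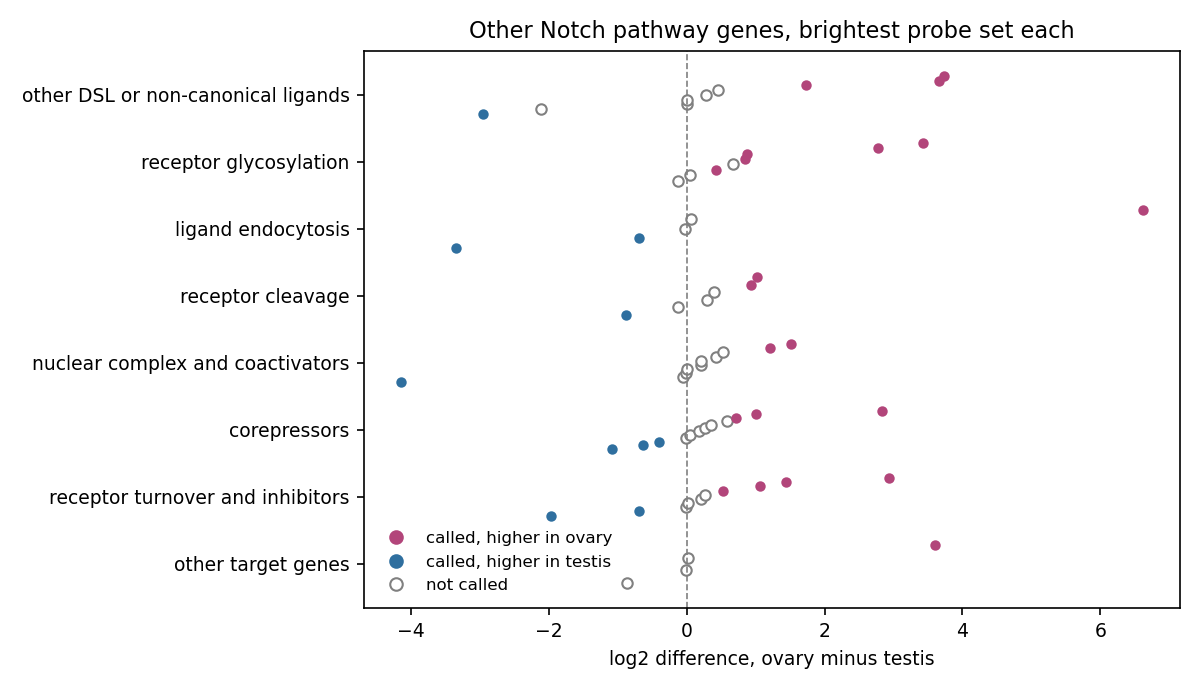
Log2 difference, ovary minus testis (horizontal axis), of the brightest probe set of each other pathway gene, grouped in rows by role, with filled points for called genes and open points for the rest. All called glycosylation genes lie right of 0, while the other rows with more than 1 called gene hold points on both sides.

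More endothelial markers were called higher in ovary, the direction of DLL4, than in testis, but many were not called. Of 19 measured endothelial genes 10 were higher in ovary and 8 were not called. The other 1, PECAM1, was higher in testis (-0.22, limma adjusted p = 0.0276, 1 of 3 probe sets called). The summed linear signal of the 19 was 4525 to 4694 in the ovary pools and 1063 to 1156 in the testis pools. CDH5, the vascular cadherin gene, was higher in ovary by 2.37 (adjusted p = 0.00715) and VWF by 1.72 (adjusted p = 0.00619, 2 of 3 probe sets called). TEK (0.74, adjusted p = 0.0707) and TIE1 (0.84, adjusted p = 0.297) were above background in all 4 pools and not called. FLT1, ESAM and ROBO4 were below background on every array. EGFL7 stands in this list as well. The call of CDH5 ended without testis pool 1 (adjusted p = 0.0553) and testis pool 2 (0.0635), and that of PECAM1 with any single pool left out (0.0796 to 0.161).

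Other cell types differed as well. Of 9 granulosa cell markers, ovary was the higher organ for 6 and testis for 2, with a summed signal of 25767 to 26477 in the ovary pools and 3456 to 4918 in the testis pools. The 7 oocyte markers summed to 28233 to 28256 in ovary and 55.6 to 60.1 in testis, and the 9 spermatid markers to 853 to 869 in ovary and 78068 to 80626 in testis. Of 9 smooth muscle and pericyte genes, ovary was higher for 2 and testis for 1, and of 7 genes of steroid-producing cells 4 and 1. Of 8 Sertoli cell genes, ovary was higher for 2 and testis for 5. AMH and FSHR stand in both the granulosa and the Sertoli cell list, so that these counts share genes. Of 6 germ cell genes, ovary was higher for 1 and testis for 3, of 9 leukocyte genes 4 and 2, and of 3 genes of ciliated epithelium 0 and 2. The part of any of these cell types in the differences of the Notch genes was not tested.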

How the data were processed

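The values are log2 expression values per probe set, made and deposited by the authors. The submitters' processing notes list GCRMA and MAS5 without saying what each was used for, and the arrays were checked with affyPLM, per the series design. Of 38535 probe sets 153 controls were left out. Symbols came from the platform annotation (1 symbol for 27166 probe sets), updated through assembly GRCg7b, whose gene table was used for names and chromosomes only.

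Ovary was compared with testis by limma 3.58.1 in R 4.3.3 (lmFit, eBayes, two-sided, Benjamini-Hochberg over 38382 probe sets), with 2 residual and 0.741 prior degrees of freedom. The script was tested on simulated data with known changes in probe sets well above background, so that this test does not cover dim ones. P-values measure the spread between pools, not birds, and precision is limited by having 4 arrays. In fits that leave out a pool, the spread comes from the other organ's pools alone. The smallest p that an exact permutation test could give here is 0.333.

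The background level was set at percentile 99 of all values of the non-chicken probe sets. Where both pools of an organ lay at or below it, the fold is "at least" the other organ's mean over that level. A gene with several probe sets is represented by the one with the highest mean over the 4 arrays. Levels of different probe sets were not compared as amounts of transcript. The summed signals add linear values over the genes of a list, so that bright probe sets weigh most in them. Named genes were all member probe sets, up to 4 called genes per direction in each pathway list, RBPJ, HES5 and RFNG, cell type markers given beside a result, and the 5 genes with the profile nearest to the called Notch gene with the largest fitted difference. HES6 and NRARP were named after their values were seen. Members and lists were chosen with earlier results of these data known. Pools of the 2 organs share numbers, but nothing ties them to each other.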

Additional observations from a re-analysis of the deposited data

How the results depend on the processing

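With 1 pool left out, the calls over all probe sets ranged from 3734 to 6449 higher in ovary and from 4053 to 6007 in testis, those of the Notch probe sets from 3 to 10 higher in ovary, and those of the other pathway genes from 12 to 15 and from 3 to 10. The low ends came without testis pool 2. Under the other settings tried (dim probe sets left out, a variance trend, robust moderation, quantile normalization, median centring, a floor at background and a replicate block) every one of these counts was within 1.5 times its reported value, as were the pathway counts from the median of a gene's probe sets (16 and 11), and 0 Notch probe sets were called higher in testis. In the fits without a pool, differences that had not been called spanned 0 for NOTCH1 (-0.066 to 0.19), NOTCH2 (second-brightest probe set, -0.96 to 2.70), DLL1 (-0.082 to 0.87 and -0.34 to 0.70) and HEY2 (-0.00055 to 0.67). The cause of the changed calls was not tested. With the pool number as a replicate block, 5874 probe sets were called higher in ovary and 5506 in testis, 8 Notch probe sets, and 14 and 10 other pathway genes. Same-numbered pools deviated together little (r = 0.05 across probe sets). HEY1 lost its call under the block (adjusted p = 0.108). Robust moderation and quantile normalization ended the call of the dim NOTCH2 probe set (adjusted p = 0.0558 and 0.058), as did the floor at background, under which all its values are equal. The filter on dim values kept 13 of the 25 Notch probe sets. Probe sets near background limit what can be said of DLL1, HEY2 and most of the NOTCH1 and NOTCH2 probe sets.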

Other observations

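By the fitted differences MFNG (6.23) stood above LFNG (5.25), but with values below background set to it the order turned, with 5.205 for MFNG and 5.251 for LFNG. MFNG was the gene whose profile was compared with those of all others, with its testis values below background. Over the 4 arrays the genes whose log2 values, centred on their own mean, lay nearest to it by Euclidean distance were HBEGF (0.274), INCENPL (0.299), TFAP2B (0.315), EEF1A2 (0.326) and CCNJL (0.347). Their differences ran from 6.22 to 6.41 log2 units toward ovary. With 4 arrays in 2 organs, this measure mostly ranks genes by how near their difference between the organs is to that of MFNG.

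In 2 Notch probe sets, one of NOTCH2 and one of LFNG, ovary pool 1 exceeded ovary pool 2 by 3.66 and 3.56 log2 units, while the brightest probe sets of the same genes differed between these pools by 0.18 and 0.23.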
